A study of Mus musculus with 20 samples.

Results

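The red cell membrane and its underlying skeleton are represented here by 8 genes: Slc4a1, Epb42, Ank1, Sptb, Epb41, Rhag, Rhd and Kel. They were taken by name from a table of 54532 genes counted in mouse spleen, and each name matched 1 row. All 8 were among the 17600 genes with enough counts to be tested. The study compared whole spleen RNA of mice aged 4 weeks between a control group (11 libraries) and a group bred on a gluten-free diet (9 libraries). RNA was extracted with a lipid tissue kit and DNase, and libraries were sequenced on an Illumina NovaSeq. Libraries carry an ID that is a plain number or a number after the letter S, and no label says what the letter stands for. There were 8 control libraries (IDs 1 to 8) and 4 gluten-free libraries (IDs 7 to 10) with plain IDs, and 3 control libraries (S1, S2 and S6) and 5 gluten-free libraries (S1, S3, S5, S6 and S8) with S IDs. The labels name no strain, no diet composition and no other treatment, and they do not say that each ID is a separate mouse, so p-values measure the spread between these libraries only.

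The red cell membrane is held to a meshwork of spectrin tetramers joined by short actin filaments. Band 3, the anion exchanger encoded by Slc4a1, is the main integral protein, and ankyrin ties it to beta spectrin, with protein 4.2 bound alongside. Protein 4.1 strengthens the spectrin and actin junctions and holds them to the membrane. The Rh proteins and the Kell protein sit in the same membrane complexes and carry blood group antigens in humans. Mature mammalian red cells have no nucleus, so transcripts of these genes come mostly from erythroblasts and reticulocytes, which the spleen of young mice makes in its red pulp.

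Promoter sequences are shown for the genes whose upstream stretch held a GATA motif, the core that the erythroid factor GATA1 recognises. RefSeq windows of 250 bases before to 50 bases after a start (build GRCm38.p6) were found for 6 of the 8 genes, with 3 windows for Epb41, and for Slc4a1 and Ank1 no window was in the table used. The letters AGATAA or TGATAA, on either strand, occurred in the 250 bases upstream of 4 of the 6 genes (Rhag, Rhd, Kel and Epb42), and in 16.6% of 32851 windows of the same length. The longer string CTGNNNNNNNNNGATAA, which is spelled after the composite element of an E-box end and a GATA site and overlaps the shorter motif, occurred in Epb42, Kel and Rhag, and in 0.755% of windows. The string CCNCACCC, in which KLF1 sites are often written, was in 0 of the 6 genes and in 14.9% of windows, which says only that those letters are not in these windows. Stretches of 120 bases are given 5′ to 3′ on the strand of the gene, with the GATA motif in capitals, and TTATCA and TTATCT are the same motif read from the other strand. They lie at chr17:40811029-40811148 (plus), chr4:134864416-134864535 (plus) and chr6:41704326-41704445 (minus), each ending at the base before the RefSeq start, and at chr2:121037008-121037127 (minus), which runs from 250 to 131 bases before the start. The deposited gene models begin at 121037072 for Epb42, 40811126 for Rhag and 41704339 for Kel. Part of each of these stretches therefore lies within the deposited gene model.
Rhag: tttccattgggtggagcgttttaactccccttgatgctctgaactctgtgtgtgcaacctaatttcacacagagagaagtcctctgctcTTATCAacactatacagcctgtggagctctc
Rhd: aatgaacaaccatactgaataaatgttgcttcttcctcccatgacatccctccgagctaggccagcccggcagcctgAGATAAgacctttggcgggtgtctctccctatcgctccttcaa
Kel: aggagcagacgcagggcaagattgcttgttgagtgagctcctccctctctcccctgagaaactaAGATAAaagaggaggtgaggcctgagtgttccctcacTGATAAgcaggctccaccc
Epb42: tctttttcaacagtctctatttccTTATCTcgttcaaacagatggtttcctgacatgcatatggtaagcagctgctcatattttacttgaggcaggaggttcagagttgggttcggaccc
A match is a description of the letters, not evidence of a bound site, and no binding was measured.

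Levels are given as CPM, counts scaled to a common library size after TMM composition scaling. Summed marker levels are CPM of the plain library total. Library totals ran from 13626021 to 24268237 counts, with 13626021 to 19719591 in control and 16134584 to 22501138 in gluten-free libraries of plain IDs. The lowest count of any of the 8 genes in any library was 2154 (Rhag in gluten-free 7), so counting error was at most 2.15% of a value and was smaller than the spread between libraries. As a check of the tissue, all 5 B cell markers and all 6 red pulp macrophage markers were counted, at a summed 765 to 2743 and 364 to 1049.5 CPM of the library total. Several libraries stood apart from their groups. Control 8, control S6 and gluten-free S6 were lowest for the summed 8 genes in their groups and highest for B cell and T cell markers, and gluten-free S8 was highest of all libraries for their sum. Control 5 lay among the S libraries on the second principal component (-19.8, against -35.8 to -13.3 in S IDs and -1.04 to 35.8 in the other plain IDs). Pancreatic acinar markers reached a summed 7331 CPM in gluten-free S1 and 647 in control 4.

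Within the plain IDs all 8 genes were lower in gluten-free than in control spleens, by log2 fold changes from -0.98 (Epb41) to -1.45 (Kel) with a median of -1.31 (edgeR quasi-likelihood test, adjusted p from 2.43e-05 to 0.000296). In this comparison 22.0% of the 17600 tested genes were called lower and 41.7% were called in either direction, and the median log2 fold change of all genes was 0.050. Together the 8 genes took 0.739 to 1.10% of all counts in the 8 control libraries and 0.361, 0.610, 0.553 and 0.491% in gluten-free 7 to 10. In whole spleen RNA, fewer erythroid cells and less of each transcript per erythroid cell cannot be told apart.

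Slc4a1 (ENSMUSG00000006574, chromosome 11, 102348824 to 102366203, minus strand, build GRCm38 per the submitters' processing notes) encodes band 3, which exchanges chloride for bicarbonate. By mean CPM it held rank 6 among the tested genes. In the plain control libraries it ran from 3408 (lowest) to 5799 (highest) with a median of 5513 CPM, and in gluten-free 7 to 10 it was 1363, 2689.9, 2323 and 2085 CPM. Every gluten-free library lay below every control library, the lowest control being control 8. The gluten-free mean was 0.411 times the control mean, with a log2 fold change of -1.28 ± 0.18 (SE, edgeR adjusted p = 6.16e-05). In the S IDs the control libraries S1, S2 and S6 held 5795, 7104 and 3435 CPM and gluten-free S1, S3, S5, S6 and S8 held 5016, 5096, 5328, 3274 and 8443 CPM. The ranges of the diets overlapped, with S6 at the bottom of each group.

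Epb42 (ENSMUSG00000023216, chromosome 2, 121017891 to 121037072, minus strand) encodes protein 4.2, a transglutaminase-like protein without enzyme activity that binds band 3. Plain control libraries ran from 273 (lowest) to 528 (highest) with a median of 397 CPM, and the lowest was control 5, not control 8 (288). Gluten-free 7 to 10 held 109, 194, 163 and 164 CPM, all below the controls. Its log2 fold change was -1.36 ± 0.19 (SE, edgeR adjusted p = 5.66e-05). The S libraries held 389, 612 and 252 CPM in control S1, S2 and S6 and 392, 338, 381, 192 and 714 CPM in gluten-free S1, S3, S5, S6 and S8. Both the lowest and the highest of these 8 values were gluten-free libraries, S6 and S8.

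Ank1 (ENSMUSG00000031543, chromosome 8, 22974844 to 23150497, plus strand) encodes erythroid ankyrin, the adaptor from band 3 to beta spectrin. It ran from 359.9 (lowest) to 793 (highest) with a median of 677 CPM in plain control libraries and was 197, 361, 329 and 280.5 CPM in gluten-free 7 to 10. The groups met at 1 point: gluten-free 8 (361) was above control 8 (359.9), and the other 7 control libraries started at 614 CPM. The log2 fold change was -1.16 ± 0.19 (SE, edgeR adjusted p = 0.000185). In S IDs Ank1 was 642, 737 and 429 CPM in control S1, S2 and S6 and 549, 509, 591, 383 and 824 CPM in gluten-free S1, S3, S5, S6 and S8, so the groups overlapped. Reads from the antisense gene Gm15816, which lies inside Ank1, came to 1.61% of the Ank1 count.

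Sptb (ENSMUSG00000021061, chromosome 12, 76580488 to 76710547, minus strand) encodes beta spectrin of the red cell skeleton, which binds ankyrin, protein 4.1 and actin. Plain control libraries ran from 665 (lowest) to 1438 (highest) with a median of 1242 CPM. Gluten-free 7 to 10 held 392, 692, 633 and 520.0 CPM, and gluten-free 8 again lay just above control 8, with the other control libraries at 1084 CPM or more. The log2 fold change was -1.09 ± 0.19 (SE, edgeR adjusted p = 0.000296), and the gluten-free mean was 0.471 times the control mean. Control S1, S2 and S6 held 1305, 1464 and 839.5 CPM and gluten-free S1, S3, S5, S6 and S8 held 1059, 940.4, 1111, 733 and 1521 CPM, with overlap. Plekhg3 ends on the opposite strand where Sptb ends, and its reads came to 2.51% of the Sptb count.

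Epb41 (ENSMUSG00000028906, chromosome 4, 131923413 to 132075321, minus strand) encodes protein 4.1, which strengthens the junction of spectrin with actin. It ran from 780.2 (lowest) to 1225 (highest) with a median of 1057 CPM in plain control libraries, against 385, 646, 575 and 519 CPM in gluten-free 7 to 10. The groups did not overlap, but the fall was the smallest of the 8 by point estimate, with a log2 fold change of -0.98 ± 0.14 (SE, edgeR adjusted p = 8.56e-05). Its 95% confidence interval (-1.28 to -0.67) overlapped those of the other 7 genes, and differences between genes in size of change were not tested. In S IDs, control S1, S2 and S6 held 1282, 1604 and 714 CPM and gluten-free S1, S3, S5, S6 and S8 held 1090.1, 1036, 1058, 653 and 1619.5 CPM. Epb41 is also used by many cells outside the red lineage, and whether this bears on its fold change was not tested.

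The genes of the Rh complex and Kell were the other 3. Rhag (ENSMUSG00000023926, chromosome 17, 40811126 to 40840754, plus strand) encodes the Rh-associated glycoprotein, a gas or ammonium channel that brings the Rh proteins to the surface. Rhag ran from 223 (lowest) to 461 (highest) with a median of 356 CPM in plain control libraries and was 90.7, 155, 137 and 140.2 CPM in gluten-free 7 to 10. No gluten-free library reached the lowest control, and the log2 fold change was -1.44 ± 0.17 (SE, edgeR adjusted p = 2.43e-05). Rhd (ENSMUSG00000028825, chromosome 4, 134864536 to 134896172, plus strand) is the single Rh blood group gene of the mouse. It ran from 449 (lowest) to 1041 (highest) with a median of 800.2 CPM in control and was 216, 379, 347 and 321 CPM in gluten-free 7 to 10, with a log2 fold change of -1.34 ± 0.19 (SE, edgeR adjusted p = 7.75e-05). Kel (ENSMUSG00000029866, chromosome 6, 41686330 to 41704339, minus strand) encodes Kell, a membrane metalloprotease linked to the Xk protein. Kel ran from 393 (lowest) to 793 (highest) with a median of 695 CPM in control and was 171, 287, 264 and 241 CPM in gluten-free 7 to 10. The Kel groups did not overlap, the gluten-free mean was 0.365 times the control mean, and the log2 fold change of -1.45 ± 0.18 (SE, edgeR adjusted p = 2.72e-05) was the lowest of the 8 by point estimate. The gene model Gm37527 on the same strand inside Kel had reads that came to 4.75% of the Kel count.

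In the S IDs these 3 genes overlapped between the diets. Rhag was 345, 428 and 213 CPM in control S1, S2 and S6 and 334, 299.6, 335, 201 and 552 CPM in gluten-free S1, S3, S5, S6 and S8. Rhd was 816, 773 and 487 CPM in the same control libraries and 713, 714, 826, 487 and 1013 CPM in the gluten-free ones. Kel was 774, 912 and 508 and 688, 632, 925, 474 and 1179 CPM. For all 3, gluten-free S8 was the highest S library and an S6 library was the lowest.

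**Figure D1:**
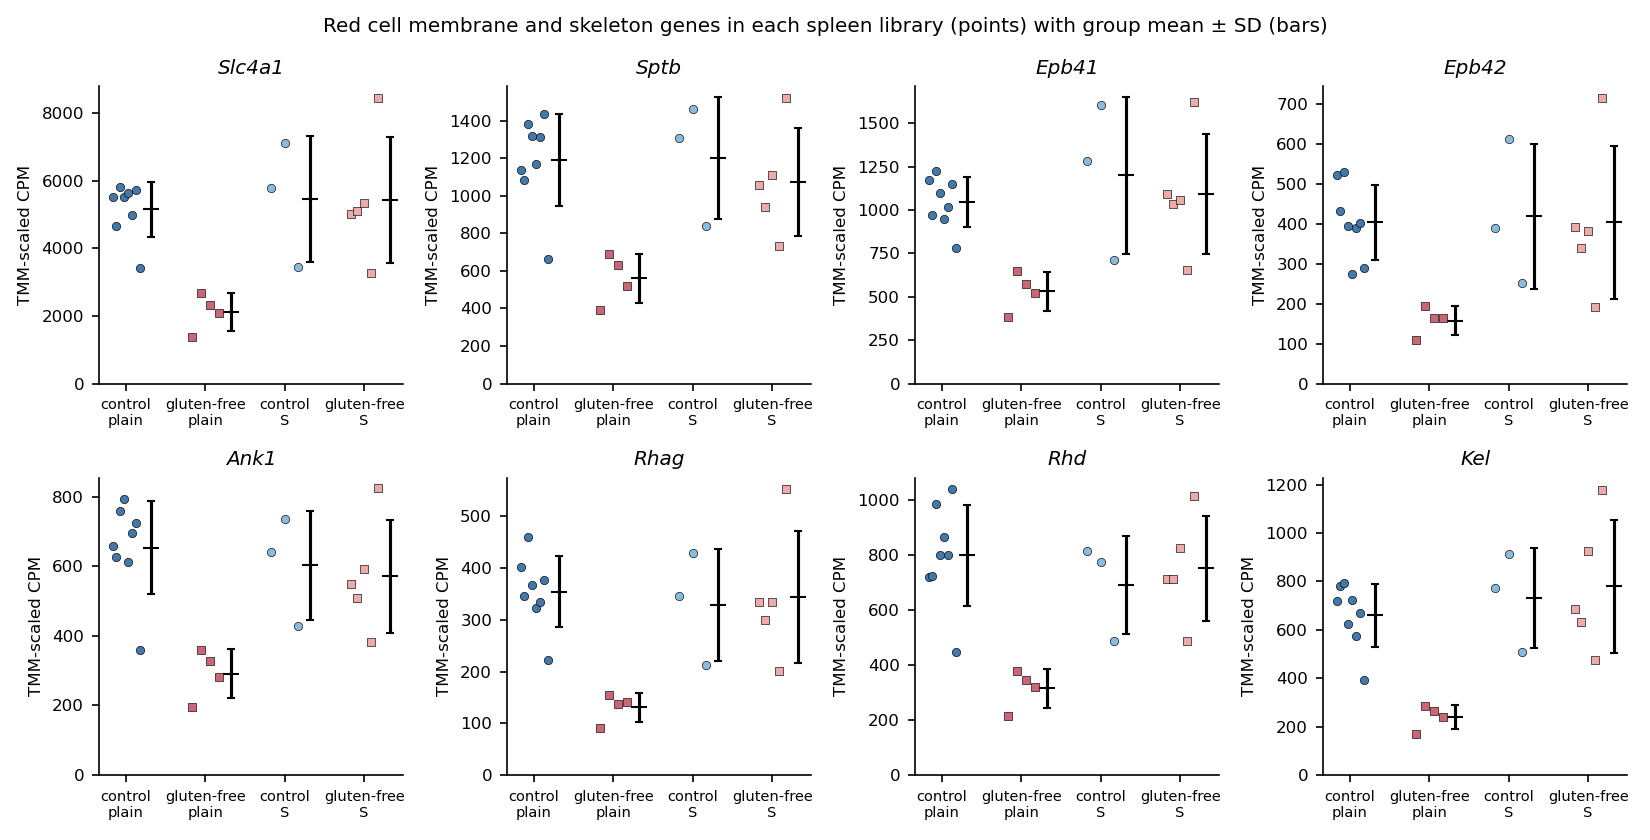
TMM-scaled CPM of each gene (y axis, one panel per gene, from 0) by group (x axis: diet and ID form), with 1 point per library and bars for the group mean ± SD. The 4 gluten-free libraries of plain IDs lie below the 8 control libraries of plain IDs except where control 8 meets them in Sptb and Ank1, and the S groups overlap in all 8 panels.

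Counted over the genes, the plain ID groups did not overlap in CPM for 6 of 8 genes, where 13.5% of all tested genes had every gluten-free library below every control library. Without control 8 all 8 remained called, with log2 fold changes from -1.53 to -1.03, and without control 5 from -1.45 to -0.99. The size depended on library scaling, and the TMM factors were 1.13 to 1.24 in plain gluten-free and 0.906 to 1.13 in plain control libraries. Scaled by library total alone, the 8 genes were still called lower (11.6% of tested genes), at -1.19 to -0.72, while the median of all genes moved to 0.30. Relative to the median of all genes the range was -1.50 to -1.03 with TMM and -1.50 to -1.02 by library total. Over all genes the calls were 3474 higher and 3865 lower with TMM, and 6521 higher and 2044 lower by library total.

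Markers of other cells also differed between the diets in the plain IDs, and those called were higher in gluten-free libraries, opposite to the 8 genes. Of all 17600 tested genes, 3474 were called higher there. Of neutrophil markers 7 of 7 were higher in gluten-free libraries, with a summed level of 591 to 1612 CPM in control and 2833 to 7087 in gluten-free libraries. Megakaryocyte and platelet markers were higher in 6 of 6 (571 to 1259 against 1804 to 2462) and T cell markers in 6 of 6 (154 to 369 against 386 to 497). B cell markers were higher in 2 of 5 (997 to 2414 against 1907 to 2743), mesothelium markers in 3 of 5 (48.3 to 135 against 106 to 212). None of 6 red pulp macrophage markers was called (606 to 1049.5 against 835 to 1047), nor any of 5 adipocyte markers (11.7 to 52.0 against 12.5 to 105). None of 6 acinar markers passed the expression filter over the 20 libraries. Their summed level was 0 to 647 in control libraries, with a median of 0.551 and the highest value in control 4. In gluten-free libraries it was 0.248 to 0.623. No gene of these marker lists was at 0 in all libraries. The part of these markers in the fall of the 8 genes was not tested.

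Within the S IDs 0 of the 8 genes were called, as were 0 of 17600 genes (0%) in edgeR, where 917 genes had an unadjusted p under 0.05. DESeq2 called 4 genes and limma-voom 0, and none of the 8 by either tool. In CPM the groups did not overlap for 0 of the 8 and for 3.68% of tested genes. Log2 fold changes ran from -0.17 (Sptb) to 0.12 (Rhd), with 3 of 8 above 0. The 95% confidence intervals were wide: -0.72 to 0.71 for Slc4a1, -0.72 to 0.39 for Sptb, -0.89 to 0.78 for Epb42 and -0.55 to 0.74 for Kel. A fall as large as the plain ID estimate lay outside the interval of each gene, the nearest being Epb41 with a lower bound of -0.81 against an estimate of -0.98. The Slc4a1 mean was 5445 ± 1859 CPM (SD, n = 3) for S control against 5431 ± 1872 CPM (SD, n = 5) for S gluten-free. Single libraries moved these values: the range over the 8 genes was -0.40 to -0.081 without control S6, -0.36 to -0.014 without gluten-free S8, -0.055 to 0.24 without gluten-free S6, and 0.00056 to 0.33 without control S2.

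**Figure D2:**
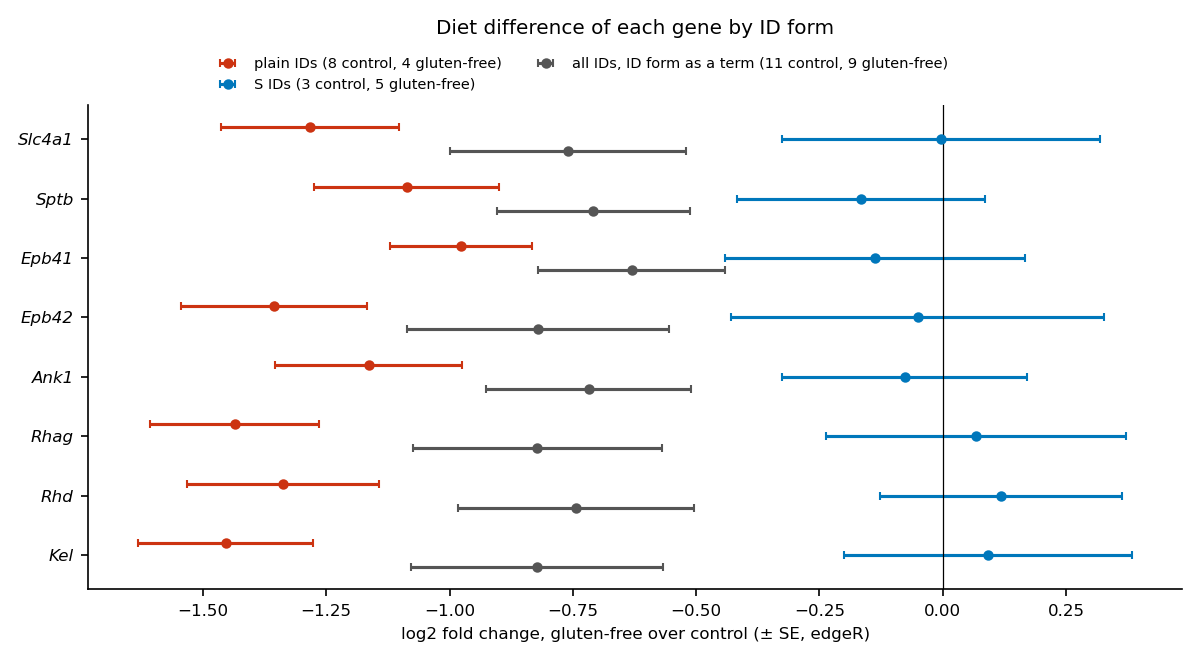
Log2 fold change of each gene by diet (x axis, gluten-free over control, with bars of ± 1 standard error from edgeR) for plain IDs, S IDs and all IDs. The plain ID estimates run from -1.45 to -0.98, the S ID estimates lie on both sides of 0, and those over all IDs lie between.

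The difference between the ID forms was itself tested. The interaction of diet and ID form, the S effect minus the plain effect, was called above 0 for 7 of 8 genes, where 15.3% of tested genes were called in that direction and 25.7% in either. Kel had the largest estimate, 1.55 ± 0.34 (SE, edgeR adjusted p = 0.00432), followed by Rhag at 1.50 ± 0.35 (SE, edgeR adjusted p = 0.00541) and Rhd at 1.46 ± 0.33 (SE, edgeR adjusted p = 0.00449). Epb42 had 1.30 ± 0.42 (SE, edgeR adjusted p = 0.0272), Slc4a1 1.28 ± 0.35 (SE, edgeR adjusted p = 0.0131), Ank1 1.09 ± 0.32 (SE, edgeR adjusted p = 0.0187) and Sptb 0.92 ± 0.32 (SE, edgeR adjusted p = 0.0389). Epb41 had 0.84 ± 0.32 (SE) and was not called (edgeR adjusted p = 0.0592), and it was called by DESeq2 and limma-voom. The count rested partly on single libraries: without control S6 it was 4 of 8 (Slc4a1, Rhag, Rhd and Kel, with 11.4% of tested genes called higher), it was 5 without gluten-free S8 (12.2%), without gluten-free 7 (12.8%) or without control S1 (12.0%), and it was 8 without gluten-free S6 (18.1%), without control S2 (14.9%) or without control 8 (17.8%). Without control 5 it was 7 (15.3%). By library total alone 6 were called (7.50%), Sptb losing its call, while the median of all genes moved from -0.037 to -0.30 and the calls over all genes from 2701 higher and 1815 lower to 1320 higher and 2632 lower.

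The ID forms were also compared within each diet. In control libraries the ID form made no called difference to any of the 8 genes, where 2.35% of tested genes were called (413 genes, edgeR, with 2846 at an unadjusted p under 0.05). That count of genes was 0 without control S1, 0 without control S2 and 964 without control S6. DESeq2 and limma-voom also called 0 of the 8, as did edgeR without control 5. Log2 fold changes of S over plain IDs ran from -0.21 (Rhd, 95% confidence interval -0.66 to 0.25) to 0.20 (Epb41, -0.22 to 0.62). In gluten-free libraries all 8 genes were higher in S than in plain IDs, where 20% of tested genes were called higher and 33.1% in either direction. This comparison shares the 4 plain gluten-free libraries with the diet comparison in plain IDs. The estimates ran from 0.94 ± 0.22 (SE, edgeR adjusted p = 0.00744) for Sptb to 1.70 ± 0.25 (SE, edgeR adjusted p = 0.00185) for Kel, with 1.36 ± 0.27 (SE, edgeR adjusted p = 0.00382) for Slc4a1. The groups did not overlap in CPM for 7 of 8 genes (18.7% of tested genes), and in Epb42 gluten-free S6 (192) lay just below gluten-free 8 (194). By library total alone Epb41 also overlapped, all 8 were still called (9.39% of tested genes) at 0.62 to 1.37, the median of all genes moved from -0.061 to -0.36, and the calls over all genes went from 3514 higher and 2307 lower to 1653 higher and 5673 lower.

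Other measures differed between the ID forms as well. Mitochondrial transcripts took 1.12 to 2.14% of counts in plain control, 1.40 to 2.17% in plain gluten-free, 1.92 to 2.51% in S control and 2.23 to 4.15% in S gluten-free libraries. Megakaryocyte and platelet markers were called higher in S than in plain control libraries in 6 of 6, with a summed level of 1191 to 3026 CPM in S control libraries, and all 6 calls were lost without control S1 or without control S2, where no gene was called. In the interaction, 7 of 7 neutrophil, 5 of 6 megakaryocyte and platelet and 5 of 5 mesothelium markers were called below 0. None of the 6 T cell, 5 B cell or 6 red pulp macrophage markers was called. Of all 17600 tested genes, 1815 were called below 0 in the interaction. Whether these measures bear on the level of the 8 genes was not tested.

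Over all IDs, with the ID form as a term, the 8 genes had log2 fold changes from -0.82 (Kel) to -0.63 (Epb41), and each had an edgeR adjusted p of 0.102. None of the 8 and none of the 17600 genes (0%) was called, with 4485 genes at an unadjusted p under 0.05, the 8 among them. The Slc4a1 mean was 5231 ± 1079 CPM (SD, n = 11) for control against 3958 ± 2219 CPM (SD, n = 9) for gluten-free, and the Kel mean 679 ± 147 CPM (SD, n = 11) against 540.0 ± 346 CPM (SD, n = 9). The gluten-free group joins the low plain and the higher S libraries, and its SD was the larger one in both genes. DESeq2 called all 8 lower (6.73% of tested genes) and limma-voom called 0 of the 8 (1 gene in all). edgeR also called all 8 without control S6 (11.9% of tested genes) or without gluten-free S8 (10.7%).

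**Figure D3:**
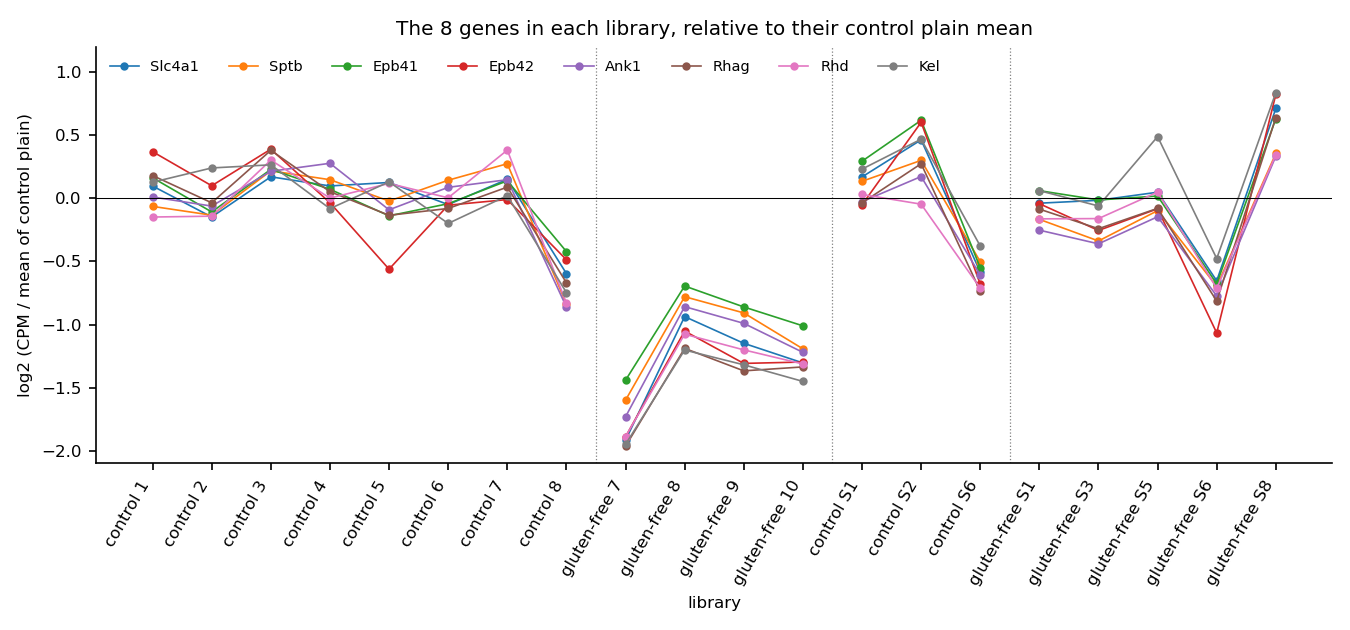
Log2 ratio of each gene's CPM to its mean in plain control libraries (y axis) in each of the 20 libraries (x axis, grouped by diet and ID form with dotted lines between groups). Each line joins the values of 1 gene across the libraries of a group and implies no order of libraries. The 8 genes broadly rise and fall together, but they part in some libraries. In control 5 Epb42 (273 CPM) is below its plain control mean (403), and Slc4a1 (5621) is above its mean (5150). In control S2 Epb41 (1604) is above its plain control mean (1045), and Rhd (773) is below its mean (798). Gluten-free 7 is lowest for all 8 and gluten-free S8 is highest for all but Rhd, which is highest in control 7. Among plain control libraries Epb42 is lowest in control 5, and the other 7 are lowest in control 8.

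The 8 genes moved together from library to library. Pearson correlations of log2 CPM over the 20 libraries ran from 0.89 (Epb42 with Rhd) to 0.99 (Sptb with Ank1), with a median of 0.96 over 28 pairs. All pairs share the library scaling and the group differences, so these values describe the libraries only. The ratio to Slc4a1, which library scaling does not touch, shows where they parted. Epb41 gave 16.9 to 22.9 reads per 100 Slc4a1 reads in plain control libraries and 28.2, 24.0, 24.8 and 24.9 in gluten-free 7 to 10. It was the only 1 of the 7 ratios whose groups did not overlap, against 66.5% of tested genes that had every gluten-free ratio above every control ratio. In the S IDs the same ratio was 20.8 to 22.6 in control and 19.2 to 21.7 in gluten-free libraries.

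Sptb and Ank1 ratios leaned the same way with overlap. Sptb gave 19.5 to 26.4 reads per 100 Slc4a1 reads in plain control and 24.9 to 28.8 in plain gluten-free libraries, and Ank1 10.6 to 14.4 and 13.4 to 14.4. Between S and plain gluten-free libraries the ratios of Sptb, Epb41 and Ank1 did not overlap and were lower in S IDs, against 65.5% of tested genes, with S ranges of 18.0 to 22.4, 19.2 to 21.7 and 9.76 to 11.7. Rhag (5.74 to 7.95 and 5.77 to 6.72), Rhd (13.1 to 18.2 and 14.1 to 15.8), Kel (11.3 to 16.8 and 10.7 to 12.5) and Epb42 (4.86 to 9.45 and 7.01 to 7.98) kept ratios in plain gluten-free libraries that overlapped the plain control range. The 3 skeleton and adaptor genes fell by less than Slc4a1 by point estimate, and the Rh, Kell and protein 4.2 genes by more, with no test of these differences.

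**Figure D4:**
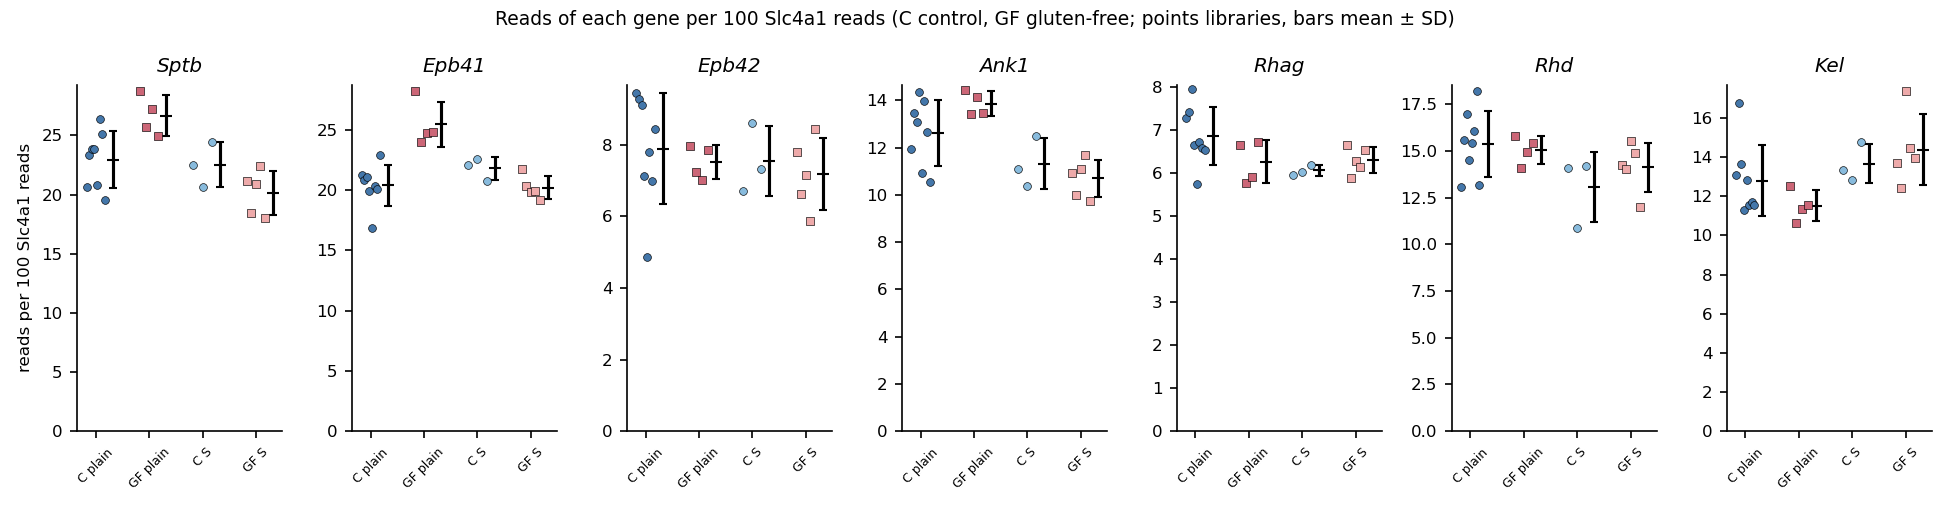
Reads of each of the other 7 genes per 100 Slc4a1 reads (y axis, from 0) by group (x axis), with 1 point per library and bars for the mean ± SD. Epb41 lies at 24.0 or more in plain gluten-free libraries and at 22.9 or less in the other plain libraries, and control 5 has the lowest Epb42 ratio (4.86).

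Per length of gene model, the genes of integral membrane proteins stood above those of the skeleton and its adaptors. Mean CPM per kilobase over the 20 libraries was 952 ± 360.5 (SD) for Slc4a1, 423 ± 153 for Rhd, 222 ± 93.2 for Kel and 129.6 ± 51.4 for Rhag. It was 85.3 ± 28.0 for Sptb, 65.8 ± 29.2 for Epb42, 61.3 ± 20.9 for Epb41 and 40.9 ± 13.8 for Ank1. Ranges of neighbours in this order overlap over all libraries, but within a library Slc4a1 was above Rhd, Rhd above Kel, Kel above Rhag and Rhag above Sptb in 20 of 20. Sptb was above Epb42 in 18 of 20, and Epb41 above Ank1 in 20 of 20. Epb42 and Epb41 did not keep an order: Epb42 was above in 12 of 20 libraries, among them 7 of 8 plain control libraries, and Epb41 was above in 4 of 4 plain gluten-free libraries. By mean CPM without division by length, Slc4a1 (4658) was still highest, followed by Sptb (1036) and Epb41 (977). Next came Rhd (674), Kel (616), Ank1 (553), Epb42 (356) and Rhag (303). The lengths are those of the deposited table, which gives 15942 bases for Epb41 with all its isoforms. It gives 13527 for Ank1 and 12147 for Sptb, against 1594 for Rhd and 2339 for Rhag. The part of these lengths in the order was not tested.

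The proteins that join these 8 in the skeleton are encoded by 11 other genes, chosen with earlier results of these data known, as were the lists that follow. Within the plain IDs 6 of 11 were lower and 2 higher in gluten-free libraries, with a median log2 fold change of -0.56. The adducin gene Add2 stood at 362 ± 67.8 CPM (SD) over the 8 control and at 131 ± 23.6 CPM (SD) over the 4 gluten-free libraries, a log2 fold change of -1.47 ± 0.17 (SE, edgeR adjusted p = 1.99e-05). Among the others, Tmod1, which caps the short actin filaments, had -1.32 ± 0.16 (SE, edgeR adjusted p = 2.81e-05), and the dematin gene Dmtn had -1.17 ± 0.20 (SE, edgeR adjusted p = 0.000311). Mpp1, a scaffold bound to protein 4.1 and glycophorin C, had -0.83 ± 0.13 (SE, edgeR adjusted p = 0.000109). The 2 that rose were Add3, the adducin of other tissues, at 0.49 ± 0.14 (SE, edgeR adjusted p = 0.00929), and Actg1, cytoplasmic gamma actin, at 0.70 ± 0.088 (SE, edgeR adjusted p = 3.36e-05). Actb, the actin of the red cell filaments and of all other cells, was not called at 0.23 ± 0.12 (SE). The third adducin gene, Add1, was also among the 6 that fell, at -0.56.

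Among 22 genes of other red cell membrane proteins, 21 were tested, of which 16 were lower and 2 higher (median log2 fold change -1.09). Icam4, an erythroid adhesion protein of the Rh complex, is listed at 0 in all 20 libraries, and whether its reads were lost to an overlapping gene model in the counting could not be checked from the counts. Gypc, which encodes glycophorin C, had -1.12 ± 0.18 (SE, edgeR adjusted p = 0.000143). Xk, the partner of Kell, had -1.28 ± 0.15 (SE, edgeR adjusted p = 2.27e-05), next to -1.45 for Kel itself. Cd47, the do-not-eat-me signal that sits in the Rh complex and on most cells, had -0.54 ± 0.13 (SE, edgeR adjusted p = 0.00343). The lowest values in the list were those of the transporters Abcb6 at -1.38 and Abcg2 at -1.37. Slc2a1, a glucose transporter of many cells, rose at 0.50 ± 0.16 (SE, edgeR adjusted p = 0.0227), as did the adhesion receptor Cd44 at 0.30 ± 0.074 (SE, edgeR adjusted p = 0.00461), while Bcam was not called at 0.34 ± 0.20 (SE).

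The paralogs used outside red cells mostly moved the other way or were not called. Of 30 paralogs 25 were tested, of which 10 were higher and 2 lower, with a median of 0.31. The most abundant spectrin paralog, Sptbn1, stood at 191 ± 36.8 CPM (SD) over the 8 control and at 277 ± 10.7 CPM (SD) over the 4 gluten-free libraries, with 0.54 ± 0.12 (SE, edgeR adjusted p = 0.00247). Ank3, the ankyrin of epithelia and neurons, had 1.01 ± 0.16 (SE, edgeR adjusted p = 0.000175). Slc4a2, the anion exchanger of most tissues, had 0.31 ± 0.075 (SE, edgeR adjusted p = 0.00356) and the protein 4.1 paralog Epb41l2 had 0.38 ± 0.12 (SE, edgeR adjusted p = 0.0204). Tgm2, the tissue transglutaminase related to protein 4.2, was lower at -0.42 ± 0.10 (SE, edgeR adjusted p = 0.00347). Ece1, related to Kell, was not called at 0.14 ± 0.12 (SE), nor was Slc4a5 at -0.49 ± 0.57 (SE). The highest estimates were Slc4a4 at 1.04, Ank3 and Epb41l4b at 0.99. Of the Rh paralogs, Rhbg and Rhcg were too low to test.

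Regulators and other products of the red lineage fell with the membrane genes. All 8 of 8 erythroid transcription factors were lower (median -0.94), from Klf1 at -1.45 ± 0.19 (SE, edgeR adjusted p = 3.93e-05) to the widely used cofactor Ldb1 at -0.31 ± 0.082 (SE, edgeR adjusted p = 0.00727), with Gfi1b at -1.13, Tal1 at -1.12, Nfe2 at -0.91 and Lmo2 at -0.90. All 18 tested erythroblast markers were lower (median -1.17), from Cldn13 at -1.56 ± 0.17 (SE, edgeR adjusted p = 1.99e-05) and Car1 at -1.56 ± 0.13 (SE, edgeR adjusted p = 9.90e-06) to the globin gene Hba-a1 at -0.77 ± 0.27 (SE, edgeR adjusted p = 0.0324). The beta globin genes Hbb-bs and Hbb-bt had -0.85 and -0.87, and reads of near-identical globin copies may be split between them. The transferrin receptor gene Tfrc had -1.38. Globin transcripts as a whole took 8.45 to 15.5% of counts in plain control and 6.57 to 11.1% in plain gluten-free libraries, ranges that overlap. In gluten-free S8, the library with the highest level of the 8 genes, they took 12.1%, within the S range of 10.2 to 15.0% in gluten-free libraries.

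In the S IDs none of the genes of these lists was called, with medians of -0.10 for skeleton genes, 0.0096 for membrane proteins, -0.32 for paralogs, 0.061 for transcription factors and -0.079 for erythroblast markers. Add2 had 0.24, Gypc -0.0083 and Klf1 0.12. The interaction was called above 0 in 3 of 11 skeleton genes, 14 of 21 membrane proteins, 7 of 8 transcription factors and 11 of 18 erythroblast markers, and below 0 in 1, 1, 0 and 0 of them. For the paralogs it was called below 0 in 5 of 25 and above 0 in none. Of all 17600 tested genes, 2701 (15.3%) were called above 0 and 1815 below 0.

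**Figure D5:**
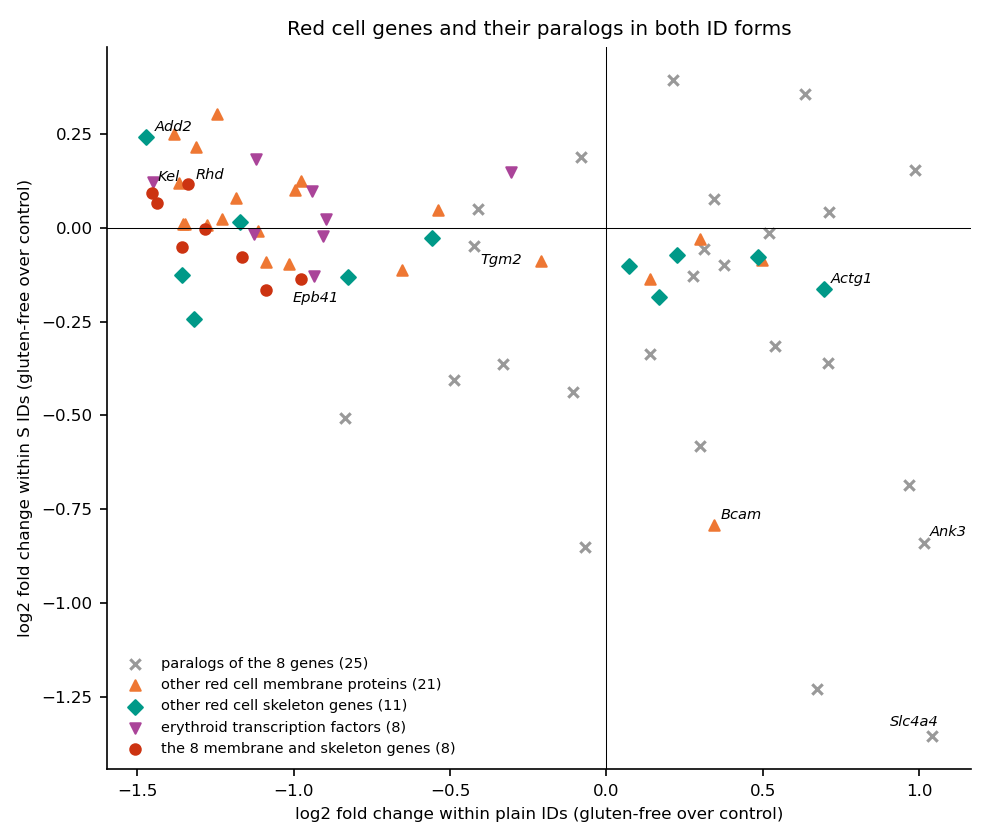
Log2 fold change by diet within the S IDs (y axis) against that within the plain IDs (x axis) for the 8 genes, other red cell genes and the paralogs, with 1 symbol per gene and the number of tested genes in the legend. The 8 genes and most erythroid genes lie left of 0 on the x axis and near 0 on the y axis, and most paralogs lie right of 0.

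Among tested protein-coding genes outside all lists, those whose log2 CPM over the 20 libraries was most like the mean of the 8 standardized genes included Rab3il1 (Pearson r = 0.997), Spire1 (0.994), Sgo1 (0.993) and Fhdc1 (0.993). Rab3il1 encodes an exchange factor for a Rab protein, Spire1 an actin nucleator and Sgo1 a guardian of sister chromatid cohesion. After the 4 group means were removed, r was 0.993 for Rab3il1 and 0.982 for Sgo1. The likeness was not rare, since 1119 of 14180 such genes (7.89%) had r over 0.9. Within the plain IDs these 4 had log2 fold changes from -1.23 (Sgo1) to -1.10 (Fhdc1), and within the S IDs from -0.090 to -0.018.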

How the data were processed

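The authors deposited whole-number counts per gene with no scaling. The submitters' processing notes name CASAVA, HISAT2 (2.0.5), featureCounts (1.5.0) and the build GRCm38 (mm10). How strand and multiply matching reads were handled is not given in the sources used here, so values of overlapping and near-identical genes are uncertain.

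The tests were two-sided quasi-likelihood tests of edgeR 4.0.16 (R 4.3.3) with TMM factors from all 20 libraries and the default expression filter for diet and ID form (17600 genes). Benjamini-Hochberg adjustment ran over every tested gene, and a gene was called under an adjusted p of 0.05. Log2 CPM used a prior count of 2. Alternatives were RLE, library total and TMM without erythroid genes, no filter, DESeq2 1.42.0, limma-voom (limma 3.58.1), a contrast from 4 groups, no term for the ID form, a replicate block and leaving out each library. TMM from the compared libraries alone was added after seeing the data. Members and lists were chosen with earlier results of these data known. Named genes are the 8, up to 3 highest and 3 lowest of each red cell, regulator and paralog list within the plain IDs, direct binding partners, the most abundant paralog of each gene and the 5 most alike genes. Marker lists of other cells are given as counts and summed levels. The erythroblast marker Ahsp was not matched, and some genes that the rule names are not reported here. In simulated data of 17600 genes, 100 genes were changed at each size, up or down at random, and genes were drawn independently. The plain ID fit recovered 97% of genes changed by a log2 fold change of 1 and 100% at 1.5, with 10 false calls. The S ID fit recovered 65% and 94%, with 15 false calls. The real libraries had many more genes called in plain IDs and genes that moved together, so these rates may not hold for them. Libraries of the same group differed beyond counting noise in 47 of 47 pairs (chi-square per degree of freedom 6.19 to 107).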

Additional observations from a re-analysis of the deposited data

Results flagged for a closer look

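Control 8 stood apart from the other 7 plain control libraries for 2 of the 8 genes. Its Sptb level was 665 CPM, with the next control library at 1084, and its Ank1 level was 359.9 CPM, with the next at 614. The gap to the nearest library was past Dixon's 95% limit for 8 values. Chance gives such a gap in about 1 in 20 groups, and each gene was examined in the 3 groups of 4 or more libraries. B cell markers were also highest among plain control libraries in control 8, and their part was not tested.

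The effect of diet differed between S and plain IDs in the edgeR interaction test for 7 of the 8 genes, where 15.3% of tested genes were called in that direction, and for 4 of the 8 without control S6 (11.4%). The S minus plain difference in log2 fold change was 1.28 for Slc4a1, 0.92 for Sptb, 1.30 for Epb42, 1.09 for Ank1, 1.50 for Rhag, 1.46 for Rhd and 1.55 for Kel. All 4 plain gluten-free libraries were below the plain control mean in each gene, and the 5 S gluten-free libraries lay on both sides of the S control mean.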

How the results depend on the processing

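The 8 calls within the plain IDs and the 8 between S and plain gluten-free libraries kept their direction and their call under other scalings, no filter, DESeq2, limma-voom and leaving out each library. The replicate block leaves only libraries with shared ID numbers to compare, which in the plain IDs are numbers 7 and 8 alone. It ended the plain ID calls: 0 of 8 were called (44 genes called in all against 7339). The estimates stayed below 0 (-1.29 to -0.91), and with so few libraries the loss of calls does not show that the difference is absent. Deviations of libraries with shared numbers correlated at -0.19 (7), -0.22 (8), 0.14 (S1) and 0.41 (S6). These values cannot decide whether shared numbers are pairs, since no reference spread was set against them. The main tests did not treat the numbers as pairs, and whether they are pairs is not known. Over all IDs DESeq2 called 8 and leaving out 1 library called 0 to 8, and for the interaction leaving out 1 library called 4 to 8. Over all genes DESeq2 called 1596 over all IDs and 4 within S IDs, where edgeR called 0 (45 within S IDs with the replicate block, none of the 8 among them), and 913 between the ID forms in control, where edgeR called 413 (0 to 964 when 1 library was left out) and limma-voom 254.

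Signs of the 8 genes turned only within S IDs and between the ID forms in control, where none of the 8 was called. Within S IDs Slc4a1 was 7.52e-05 without a filter and 0.00019 with limma-voom, and with the replicate block Rhag was -0.064, Rhd -0.097 and Kel -0.14. Leaving out 1 library there gave Slc4a1 -0.25 to 0.24, Sptb -0.37 to 0.00056, Epb41 -0.40 to 0.13, Epb42 -0.36 to 0.33, Ank1 -0.27 to 0.093, Rhag -0.17 to 0.30, Rhd -0.081 to 0.25 and Kel -0.11 to 0.28. Between the ID forms in control, Sptb was -0.028 and Epb42 -0.018 by library total, and Epb42 -0.0046 with limma-voom. Leaving out 1 library there gave Slc4a1 -0.16 to 0.32, Sptb -0.15 to 0.22, Epb41 -0.067 to 0.47, Epb42 -0.33 to 0.31, Ank1 -0.29 to 0.077, Rhag -0.34 to 0.13 and Kel -0.041 to 0.36. The causes of these moves were not tested. At these depths counting error was small beside the spread between libraries.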

Other observations

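Epb42 in control 5 was 273 CPM, the lowest plain control value, while Slc4a1 there was 5621 CPM, above the control median. The ratio of 4.86 Epb42 reads per 100 Slc4a1 reads was the lowest of the 20 libraries, and the Epb41 ratio of 16.9 was also the lowest of the 20. Ank3, the paralog of Ank1, was higher in S than in plain control libraries by 1.65 ± 0.23 (SE, edgeR adjusted p = 0.0104) on the log2 scale, where Ank1 had -0.12 ± 0.21 (SE) and was not called. Actg1 was also higher there, at 0.56 ± 0.11 (SE, edgeR adjusted p = 0.0200), the only 1 of 11 other skeleton genes called in that comparison, where 2.35% of all tested genes were called. Both calls were lost without control S1 or without control S2, where 0 genes were called.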
